A study of Mus musculus with 10 samples.

Results

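The gene set described here holds genes of ribosome biogenesis and targets of the transcription factor Myc, 41 in all. They were chosen by symbol, with earlier results of these data known. A gene was measured where the annotation of the array gave its symbol to a probe, which held for 36 of the 41, out of 20243 features tested. Dkc1, Gnl3, Noc4l, Tsr1 and Nle1 had no such probe and have no value below. RNA of mouse FDB1 cells, a myeloid progenitor line that depends on interleukin 3 (IL-3) for growth, was hybridised in pairs to 10 spotted oligonucleotide arrays with Cy5 and Cy3. The 4 RNA groups, each from 2 cultures, were FI-Delta Y577F cells (Y577F below) at 0 h, Y577F cells 72 h after removal of the factor, FI-Delta cells at 0 h and FI-Delta cells 72 h after removal. The time points were compared on 2 arrays in Y577F cells and on 3 in FI-Delta cells, where arrays 1 and 2 carried the same pair of RNA samples with the dyes exchanged. The lines were compared on 3 arrays at 0 h and on 2 at 72 h. Positive values mean higher at 72 h than at 0 h, or higher in Y577F than in FI-Delta cells, on the likely reading that the ratios are log2 of Cy5 over Cy3.

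All 4 groups thus carried an introduced receptor mutant. FI-Delta is an activated form of the beta chain that the receptors for GM-CSF, IL-3 and IL-5 share, and in Y577F a tyrosine of that receptor is replaced by phenylalanine. At 0 h cells were in Iscove's medium with fetal calf serum and mouse IL-3, and they were then washed and kept without factor. No group was kept for 72 h with IL-3, so time and loss of IL-3 cannot be told apart. Each receptor was studied in 1 cell line, whose clonality is not given in the sources used here, so receptor and line cannot be told apart. The values are ratios, which give no level, so neither the abundance of a gene nor the presence of markers of FDB1 cells could be checked.

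Ribosomes are made in the nucleolus. RNA polymerase I transcribes the ribosomal RNA precursor, small nucleolar ribonucleoproteins (snoRNPs) guide its chemical modification, and assembly factors cut and fold it together with ribosomal proteins into a small and a large subunit. Myc is known to raise transcription of genes at each of these steps and of genes of polyamine synthesis, often through the E-box CACGTG, and in myeloid cells its level is known to fall as they stop dividing and mature.

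The E-box was searched in RefSeq promoters (build GRCm38.p6), in windows from 250 bases before to 50 bases from the transcription start on. CACGTG is its own reverse complement, so a search of either strand gives the same matches. Of the 30 measured genes of the set with a window, 7 held the motif, which is 23.3%, or 21.2% of their 33 windows, against 7.15% of all 32851 windows. Among 8874 windows with a GC content between the quartiles of the set (53.3% and 63%), 8.81% held it. The share was 21.4% in 70 windows of other ribosome biogenesis genes with a probe. It was 14.3% in 28 windows of the genes of the set called lower at 72 h in Y577F cells (results below). The genes with a match were Apex1, Nop2, Prmt1, Utp20, Pes1, Mybbp1a and Imp4. The windows of 4 genes to which the results below return are shown, with each CACGTG in capitals. Apex1 (chr14:50924699-50924998 on the plus strand) held 3 copies, Nop2 (chr6:125131633-125131932 on the plus strand) and Prmt1 (chr7:44986371-44986670 on the minus strand) 1 each, and Nop56 (chr2:130274162-130274461 on the plus strand) 0.
Apex1: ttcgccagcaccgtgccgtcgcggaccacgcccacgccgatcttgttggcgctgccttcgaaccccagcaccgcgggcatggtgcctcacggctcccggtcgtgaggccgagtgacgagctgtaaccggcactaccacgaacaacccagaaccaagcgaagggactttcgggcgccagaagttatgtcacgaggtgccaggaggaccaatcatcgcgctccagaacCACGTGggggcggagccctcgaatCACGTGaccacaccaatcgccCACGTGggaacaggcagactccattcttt
Nop2: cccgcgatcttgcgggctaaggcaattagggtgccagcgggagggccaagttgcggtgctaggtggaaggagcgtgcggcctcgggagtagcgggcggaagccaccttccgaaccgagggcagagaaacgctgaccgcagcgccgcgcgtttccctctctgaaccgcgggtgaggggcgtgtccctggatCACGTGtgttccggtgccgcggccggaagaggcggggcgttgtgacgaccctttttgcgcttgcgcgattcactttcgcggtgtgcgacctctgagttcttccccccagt
Prmt1: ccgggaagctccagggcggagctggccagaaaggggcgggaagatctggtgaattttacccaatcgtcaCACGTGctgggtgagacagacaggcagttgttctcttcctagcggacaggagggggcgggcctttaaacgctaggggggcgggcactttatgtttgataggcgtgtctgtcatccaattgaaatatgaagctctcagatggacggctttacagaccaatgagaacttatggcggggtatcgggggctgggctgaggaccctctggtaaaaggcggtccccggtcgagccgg
Nop56: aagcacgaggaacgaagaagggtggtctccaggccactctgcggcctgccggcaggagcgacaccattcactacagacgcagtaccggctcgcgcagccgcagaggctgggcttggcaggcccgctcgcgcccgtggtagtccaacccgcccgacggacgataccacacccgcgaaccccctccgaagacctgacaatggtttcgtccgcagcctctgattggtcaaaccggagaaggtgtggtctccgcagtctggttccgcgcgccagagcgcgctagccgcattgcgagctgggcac
A match describes these letters in this window and shows no binding. Among the 7 genes with a match, Apex1, Nop2, Utp20 and Mybbp1a fell at 72 h in Y577F cells, Prmt1 rose, and Pes1 and Imp4 were not called in either direction. Of the whole set 28 of 36 genes, or 77.8%, fell in those cells, against 8.75% of all features, so falling was not particular to genes with a match.

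Most genes of the set were called lower at 72 h in Y577F cells, and 12 of 36 in FI-Delta cells. Changes are log2 values ± standard error (SE) of a linear model over all arrays, which joins direct and indirect comparisons, and a gene was called at a Benjamini-Hochberg adjusted p under 0.05 (limma). In Y577F cells 28 of 36 genes were called lower, or 77.8%, against 8.75% of all features, and 2 were called higher, against 9.28%. In FI-Delta cells 12 of 36 were called lower, or 33.3%, against 2.97% of all features, and 1 was called higher, against 5.19%. The arrays share RNA extracts. With each extract as a replicate block, a coefficient of its own, and no dye effect, 19 genes were called lower in Y577F cells and 3 in FI-Delta cells (Nop16, Ppan and Apex1). Calls over all features came to 1721 in Y577F cells and 544 in FI-Delta cells, against 3649 and 1652 without the block. The block leaves fewer residual degrees of freedom. Its error leaves out the spread between cultures, which its p-values thus do not measure. The median change of the 36 genes was -0.49 in Y577F cells and -0.27 in FI-Delta cells, where the medians of all features were 0.0073 and -0.0055. Each ratio compares RNA from a whole culture relative to the other RNA on that array, so fewer cells of a type and less of an RNA per cell cannot be told apart.

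On the Y577F time arrays the median of the 36 genes was -0.51 and -0.43, with 32 and 34 genes below 0. On the FI-Delta time arrays it was -0.24, -0.40 and -0.27, with 30, 29 and 31 genes below 0. The Y577F medians were the lower ones, but FI-Delta array 2 at -0.40 lay close to -0.43. FI-Delta arrays 1 and 2 carried the same RNA pair and gave -0.24 and -0.40.

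**Figure D1:**
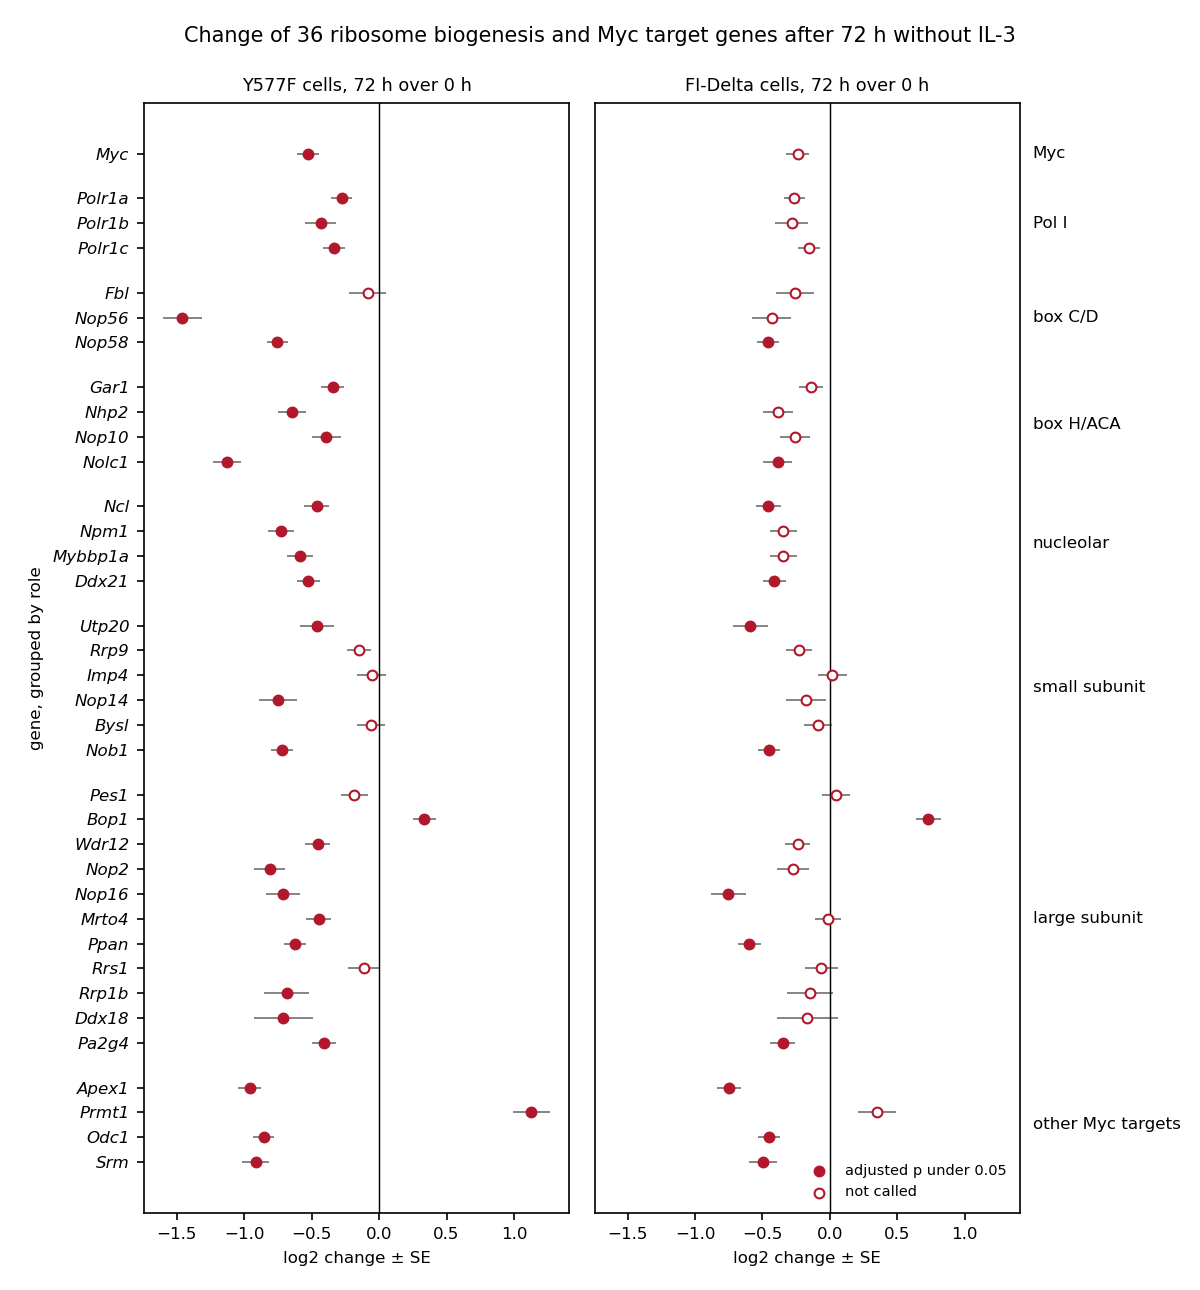
Log2 change at 72 h over 0 h (x axis, ± SE of the fit) of each of the 36 genes (y axis, grouped by role), in Y577F cells on the left and in FI-Delta cells on the right. Filled points were called at an adjusted p under 0.05: 28 lie left of 0 and 2 right of it in Y577F cells, 12 left and 1 right in FI-Delta cells.

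Myc itself had log2 ratios of 72 h over 0 h of -0.43 and -0.61 on the Y577F arrays, against -0.18, -0.46 and -0.16 on the FI-Delta arrays. All 5 arrays lay below 0, and the ranges of the lines overlapped. The fall in Y577F cells was called (-0.53 ± 0.08, adjusted p = 0.000781, 1.45-fold lower), and the change in FI-Delta cells was not (-0.24 ± 0.08, adjusted p = 0.123). The difference between these changes was -0.29 ± 0.09 and did not pass the test (adjusted p = 0.0806), so a different response of Myc RNA in the lines was not shown.

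The RNA polymerase I subunits were lower at 72 h in Y577F cells by small amounts. Polr1a, the largest subunit, Polr1b, the second largest, and Polr1c, which RNA polymerase III shares, fell in Y577F cells, with changes of -0.28 ± 0.08, -0.43 ± 0.12 and -0.33 ± 0.08 (limma adjusted p = 0.024, 0.0224 and 0.0128). In FI-Delta cells they had -0.26 ± 0.08, -0.28 ± 0.12 and -0.15 ± 0.08, none of them called (limma, 0 of 3, with 2 of 3 at an unadjusted p under 0.05). Of 10 further genes of this polymerase and its factors, 0 fell in FI-Delta cells (limma, 3 at an unadjusted p under 0.05), against 2.97% of all features. In Y577F cells 4 fell, or 40%, against 8.75%. The 4 included Taf1d, a subunit of the promoter selectivity factor (-0.90 ± 0.12, adjusted p = 0.00038), Polr1e, a polymerase subunit (-0.49 ± 0.10, adjusted p = 0.0043), and Tcof1, a nucleolar factor for rRNA transcription (-0.44 ± 0.09, adjusted p = 0.0061).

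The box C/D snoRNPs place 2'-O-methyl groups on ribosomal RNA. Their core protein Nop56 gave -1.44 and -1.32 on the Y577F time arrays, against -0.92, -0.41 and -0.55 on the FI-Delta time arrays. Every array was below 0. Nop56 had the largest fall of the set in Y577F cells, -1.46 ± 0.14 (limma adjusted p = 2.76e-05, 2.75-fold lower), while the value in FI-Delta cells was -0.43 ± 0.15 and not called (adjusted p = 0.109). Nop58, its partner in the particle, fell in both lines, with -0.75 ± 0.08 in Y577F cells and -0.46 ± 0.08 in FI-Delta cells (adjusted p = 4.12e-05 and 0.00425). Fibrillarin (Fbl), the methyltransferase of the particle, was not called, with -0.08 ± 0.14 in Y577F cells and -0.26 ± 0.14 in FI-Delta cells. Its arrays ranged from -0.33 to 0.27 in Y577F cells and from -0.67 to 0.10 in FI-Delta cells, so they lay on both sides of 0.

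The box H/ACA snoRNPs turn uridine into pseudouridine. All 4 measured genes of this group fell in Y577F cells, and of these only Nolc1, a nucleolar chaperone of snoRNPs, was also called in FI-Delta cells. The falls were 100% and 25% of the group, against 8.75% and 2.97% of all features. Nolc1 gave -1.27 and -0.77 on the Y577F time arrays, against -0.20, -0.85 and -0.36 on the FI-Delta time arrays. All arrays were below 0, and the ranges overlapped because FI-Delta time array 2 lay below Y577F time array 2. In the fit Nolc1 had -1.13 ± 0.10 in Y577F cells and -0.39 ± 0.11 in FI-Delta cells (limma adjusted p = 1.72e-05 and 0.047). The core proteins Nhp2, Nop10 and Gar1 fell in Y577F cells, with changes of -0.65 ± 0.11, -0.39 ± 0.11 and -0.34 ± 0.09. Their values in FI-Delta cells, -0.38 ± 0.11, -0.26 ± 0.11 and -0.14 ± 0.09, were not called.

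Among nucleolar proteins with several roles, all 4 measured genes were called lower in Y577F cells and 2 in FI-Delta cells. That was 100% and 50% of them, against 8.75% and 2.97% of all features. Nucleophosmin (Npm1), a histone and ribosome chaperone, gave -0.76 and -0.51 on the Y577F time arrays, against -0.43, -0.52 and -0.34 on the FI-Delta time arrays. It fell by 0.73 ± 0.10 in Y577F cells (limma adjusted p = 0.000288), and the FI-Delta value of -0.35 ± 0.10 missed the threshold (adjusted p = 0.0607). The helicase Ddx21 fell in both lines, with -0.53 ± 0.08 in Y577F cells and -0.41 ± 0.09 in FI-Delta cells. Mybbp1a, a nucleolar protein that binds Myb, had -0.58 ± 0.10 in Y577F cells, which was called, and -0.34 ± 0.10 in FI-Delta cells, which was not.

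Nucleolin (Ncl), a nucleolar RNA-binding protein, was the 1 gene of the set with 2 probes, and they disagreed. Their average was called lower in both lines, with -0.46 ± 0.09 in each (limma adjusted p = 0.00366 in Y577F cells and 0.0103 in FI-Delta cells). The probe annotated to the RefSeq mRNA of Ncl gave -0.82 and -0.99 on the Y577F time arrays, and the other probe gave -0.40 and 0.05. With probes fitted one by one, the RefSeq probe had -0.91 ± 0.13 in Y577F cells (adjusted p = 0.000506), and the other had -0.02 ± 0.13 (adjusted p = 0.957). In FI-Delta cells they had -0.45 ± 0.14 and -0.46 ± 0.13, neither of them called (adjusted p = 0.0723 and 0.0534). At 72 h the RefSeq probe was lower in Y577F than in FI-Delta cells (-0.55 ± 0.13, adjusted p = 0.0173), and the other probe was higher (0.66 ± 0.13, adjusted p = 0.00415). The average therefore hides opposite differences between the lines, and the calls of Ncl in this set rest on it.

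**Figure D2:**
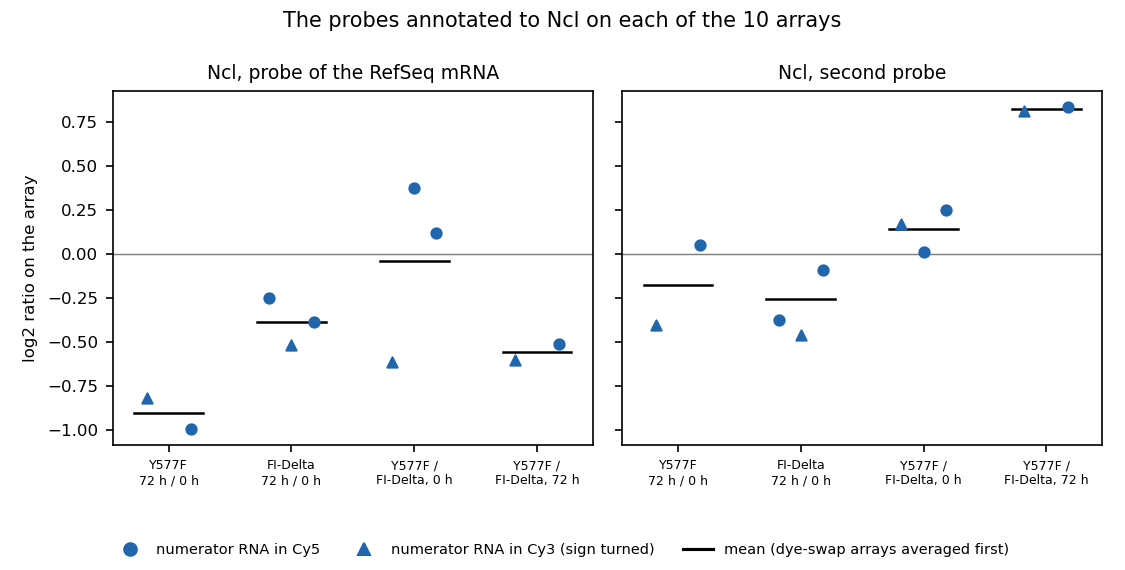
Log2 ratio on each array (y axis) for each probe annotated to Ncl, by comparison (x axis), with circles where the RNA named first was in Cy5 and triangles where it was in Cy3. At 72 h the RefSeq probe on the left gave -0.60 and -0.51 for Y577F over FI-Delta, and the other probe on the right gave 0.81 and 0.83.

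Of 6 measured assembly factors of the small subunit, 3 fell in Y577F cells and 2 in FI-Delta cells. That was 50% and 33.3% of them, against 8.75% and 2.97% of all features. Nob1, the endonuclease that makes the 3' end of 18S ribosomal RNA, fell in both, with -0.72 ± 0.08 in Y577F cells and -0.45 ± 0.08 in FI-Delta cells (limma adjusted p = 6.43e-05 and 0.00478). Utp20, a component of the processome that folds the early precursor, gave -0.33 and -0.36 on the Y577F time arrays, against -1.68, -0.37 and -0.38 on the FI-Delta time arrays. FI-Delta time array 1 stood apart from its dye swap of the same RNA, array 2, and from all other arrays of this gene. Utp20 was called in both lines (-0.46 ± 0.12 in Y577F cells and -0.59 ± 0.13 in FI-Delta cells, adjusted p = 0.0243 and 0.0149). Without FI-Delta time array 1 the FI-Delta call remained, and its value was -0.35 (adjusted p = 0.016), but without array 2 it was lost (-0.76, adjusted p = 0.086). The Y577F call was lost without 72 h array 1, FI-Delta time array 2 or either Y577F time array, with values of -0.45 to -0.56 (adjusted p from 0.0504 to 0.113). Nop14, another processome component, fell in Y577F cells (-0.75 ± 0.14) and had -0.18 ± 0.15 in FI-Delta cells, where its arrays lay on both sides of 0.

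The processome proteins Rrp9 and Imp4, which belong to the U3 particle, and Bysl, a factor of late small subunit assembly, were not called in either line. Their changes lay between -0.15 and -0.06 in Y577F cells and between -0.23 and 0.02 in FI-Delta cells.

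Of 11 measured factors of large subunit assembly, 8 fell in Y577F cells and 3 in FI-Delta cells, while Bop1 rose in both. The falls were 72.7% and 27.3%, against 8.75% and 2.97% of all features. The rise was 9.09% in each line, against 9.28% and 5.19%. Nop16, a nucleolar protein of the large subunit precursor, had the largest fall of the set in FI-Delta cells. It gave -0.97 and -0.53 on the Y577F time arrays, against -0.99, -0.40 and -0.83 on the FI-Delta time arrays. The lines overlapped, and the fitted changes were close, -0.71 ± 0.12 in Y577F cells and -0.75 ± 0.13 in FI-Delta cells (limma adjusted p = 0.00187 and 0.00374). Ppan, a factor for the large subunit precursor, gave -0.59 and -0.62 on the Y577F arrays, against -0.51, -0.47 and -0.78 on the FI-Delta arrays. It too fell by like amounts, -0.62 ± 0.08 in Y577F cells and -0.60 ± 0.09 in FI-Delta cells (adjusted p = 0.000271 and 0.00111), and the difference between these changes was -0.02 ± 0.09. Pa2g4, a growth-regulated nucleolar protein, was the other factor lower in both lines, with -0.41 ± 0.09 in Y577F cells and -0.35 ± 0.09 in FI-Delta cells.

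Nop2, a methyltransferase of the large subunit RNA, gave -0.90 and -0.53 on the Y577F time arrays, against -0.03, -0.67 and -0.42 on the FI-Delta time arrays. It was called in Y577F cells (-0.81 ± 0.11, limma adjusted p = 0.000444) and not in FI-Delta cells (-0.28 ± 0.12, adjusted p = 0.222). Mrto4, which helps build the ribosomal stalk, gave -0.40 and -0.39 on the Y577F arrays, against 0.05, 0.00 and -0.22 on the FI-Delta arrays. Its fitted changes were -0.45 ± 0.09 in Y577F cells, which was called, and -0.01 ± 0.10 in FI-Delta cells. Rrp1b and the helicase Ddx18 fell in Y577F cells, with -0.69 ± 0.17 and -0.71 ± 0.22 and a wide spread, as Ddx18 gave -1.28 on one Y577F array and -0.30 on the other. Both calls were lost without Y577F time array 1, that of Ddx18 without 4 other arrays too. Without array 1 Rrp1b had -0.33 (adjusted p = 0.26) and Ddx18 had -0.16 (adjusted p = 0.66). Rrs1, a factor that brings the 5S particle to the precursor, was not called, with -0.12 ± 0.12 in Y577F cells and -0.06 ± 0.12 in FI-Delta cells.

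Pes1, Bop1 and Wdr12 are known to form the PeBoW complex, which is needed to process the large subunit RNA, and their RNAs had different calls. Wdr12 fell in Y577F cells (-0.46 ± 0.09, limma adjusted p = 0.00437) and had -0.24 ± 0.09 in FI-Delta cells. Pes1 was not called in either line, with -0.18 ± 0.10 in Y577F cells and 0.05 ± 0.10 in FI-Delta cells. Bop1 gave 0.18 and 0.43 on the Y577F time arrays, against 0.74, 0.81 and 0.86 on the FI-Delta time arrays. All 5 arrays lay above 0. Bop1 rose by 0.33 ± 0.09 in Y577F cells and by 0.73 ± 0.09 in FI-Delta cells (adjusted p = 0.0196 and 0.000418). The RefSeq table places Scx, a transcription factor gene, over part of Bop1, and the feature of Scx was not called in any of the 5 comparisons, with 0.11 ± 0.10 in Y577F cells and 0.09 ± 0.10 in FI-Delta cells at 72 h over 0 h.

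The other Myc targets held large changes in each direction. Apex1, a DNA repair endonuclease, gave -1.04 and -0.82 on the Y577F time arrays, against -0.64, -0.90 and -0.73 on the FI-Delta time arrays. It fell in both lines with overlapping arrays and fitted changes of -0.96 ± 0.09 in Y577F cells and -0.75 ± 0.09 in FI-Delta cells (limma adjusted p = 1.45e-05 and 0.000304). Odc1, the enzyme that starts polyamine synthesis, gave -0.92 and -0.83 on the Y577F arrays, against -0.24, -0.63 and -0.30 on the FI-Delta arrays. Srm, the spermidine synthase of the same pathway, gave -1.003 and -0.907 on the Y577F arrays, against -0.06, -0.66 and -0.57 on the FI-Delta arrays. Odc1 fell, with -0.86 ± 0.08 in Y577F cells and -0.45 ± 0.08 in FI-Delta cells (adjusted p = 1.85e-05 and 0.00507), and so did Srm, with -0.92 ± 0.10 in Y577F cells and -0.50 ± 0.10 in FI-Delta cells (adjusted p = 7e-05 and 0.0121).

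Prmt1, the main enzyme for asymmetric dimethylation of arginine in mammalian cells and a modifier of fibrillarin, went the other way. It gave 1.31 and 1.09 on the Y577F time arrays, against -0.01, -0.04 and 0.42 on the FI-Delta time arrays. The FI-Delta arrays lay on both sides of 0. Prmt1 rose in Y577F cells by 1.13 ± 0.14 (limma adjusted p = 0.000145, 2.19-fold higher), and its value in FI-Delta cells was 0.35 ± 0.14 (adjusted p = 0.189). Of the 6 measured genes of a list of other arginine methyltransferases and their cofactors, 0 rose and 3 fell in Y577F cells, and 0 rose and 2 fell in FI-Delta cells (limma, with 0 of 6 higher in either line at an unadjusted p under 0.05). Of all features, 9.28% rose and 8.75% fell in Y577F cells, and 5.19% rose and 2.97% fell in FI-Delta cells. Wdr77, the cofactor of Prmt5, fell in both lines, with -0.54 ± 0.11 in Y577F cells and -0.52 ± 0.11 in FI-Delta cells, and so did Carm1, a coactivator methyltransferase, with -0.28 ± 0.08 in Y577F cells and -0.38 ± 0.08 in FI-Delta cells.

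**Figure D3:**
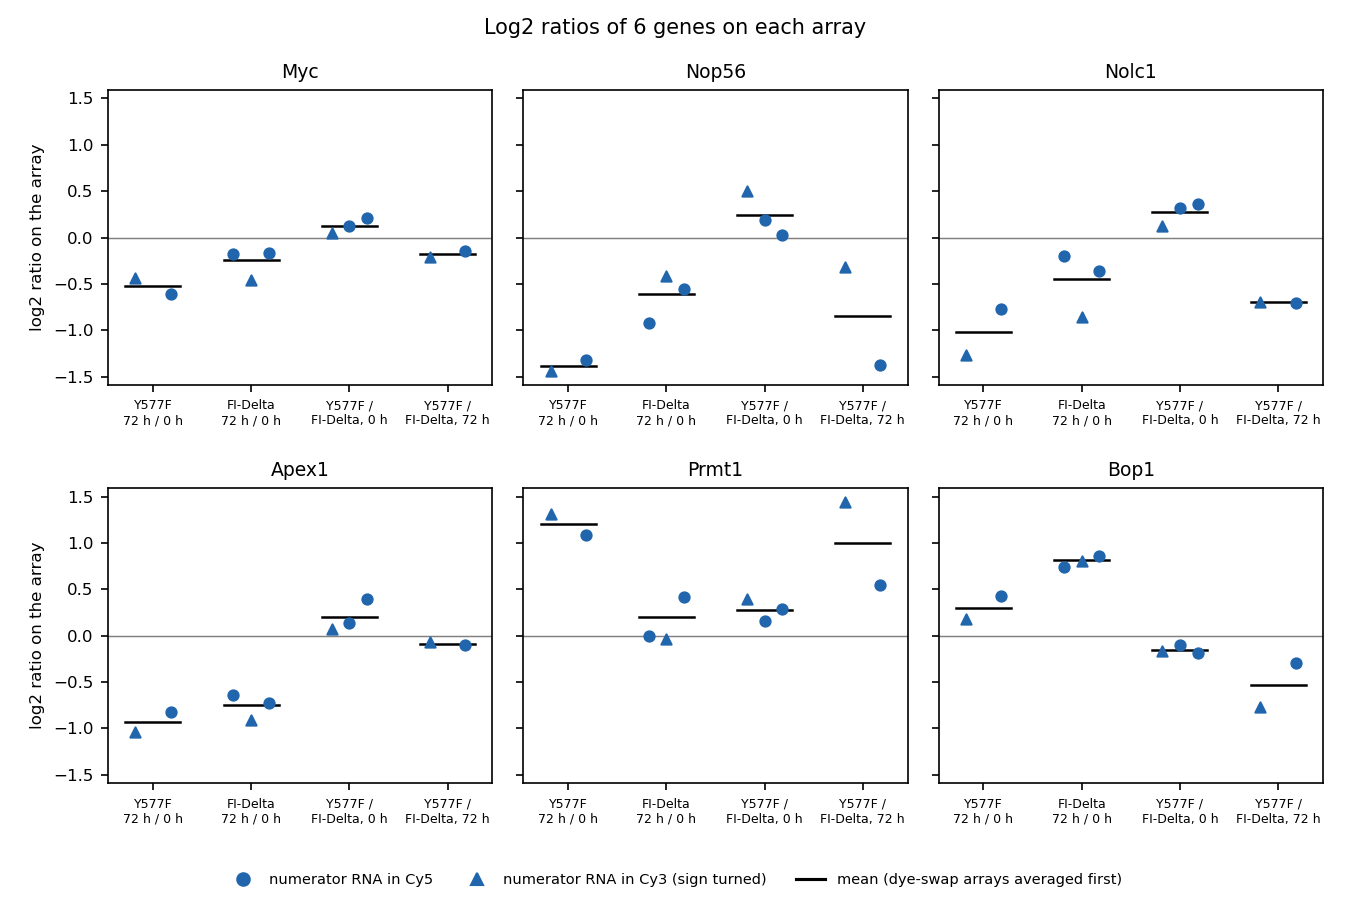
Log2 ratio on each array (y axis) for Myc, Nop56, Nolc1, Apex1, Prmt1 and Bop1, by comparison (x axis), with circles where the RNA named first was in Cy5, triangles where it was in Cy3, and a line at the mean after averaging the dye swap. Apex1 overlaps between the time comparisons of the lines, Prmt1 reaches 1.31 and 1.09 on the Y577F time arrays, and Bop1 is highest on the FI-Delta arrays, at 0.74, 0.81 and 0.86.

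Counted by line, 12 genes were called lower in both, 16 were called lower in Y577F cells and not called in FI-Delta cells, and 6 were not called in either. Of the 30 calls in Y577F cells, 16 held when any 1 array was left out. Without Y577F time array 1, those of Polr1a, Polr1c, Gar1, Nop10, Ncl, Utp20, Nop14, Bop1, Wdr12, Mrto4, Rrp1b and Ddx18 were lost. Without Y577F time array 2, those of Polr1a, Polr1b, Gar1, Nop10, Ncl, Utp20, Bop1, Wdr12 and Pa2g4 were lost. Of the 13 calls in FI-Delta cells 8 held. Those of Nolc1 and Pa2g4 were lost without any of 7 arrays, those of Ddx21 and Srm without FI-Delta time array 2 or 3, and that of Utp20 without array 2.

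Whether the changes differed is answered by the test of the difference between the lines (Y577F change minus FI-Delta change). This was called lower for 8 of 36 genes, or 22.2%, against 4.91% of all features, and higher for 1, against 4.33%. The 8 were Nop56 (-1.03 ± 0.16, limma adjusted p = 0.00248), Nolc1 (-0.74 ± 0.12, adjusted p = 0.00252), Nop14 (-0.57 ± 0.16), Nop2 (-0.54 ± 0.13), Mrto4 (-0.43 ± 0.11), Srm (-0.42 ± 0.12), Odc1 (-0.40 ± 0.09) and Bop1 (-0.40 ± 0.10). The 1 that was higher was Prmt1 (0.78 ± 0.16, adjusted p = 0.00987).

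For the other genes called in Y577F cells alone, such as the polymerase subunits, the H/ACA core proteins, Npm1 and Myc, a difference between the lines was therefore not shown. The median difference of the 36 genes was -0.22, with 30 of 36 below 0, where the median of all features was 0.0126. The calls of Nop56, Nolc1 and Prmt1 held when any 1 array was left out. The other 6 were each lost without at least 1 array. With the direct time arrays alone and no dye effect, 0 of 36 differences were called (limma, with 9 lower and 1 higher at an unadjusted p under 0.05).

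Between the lines at 0 h, with IL-3 present, 0 of 36 genes were called in either direction (limma, against 0.934% higher and 0.484% lower of all features, with 4 genes higher and 1 lower at an unadjusted p under 0.05). The changes lay between -0.25 and 0.28, with a median of 0.05 against -0.0059 for all features. With signs turned to Y577F over FI-Delta, 0 h arrays of opposite dye had an r across features of 0.09 and -0.04. They thus agreed little, which limits what the 0 h comparison can show. Myc had ratios of Y577F over FI-Delta of 0.05, 0.12 and 0.21 on the 0 h arrays, and Nop56 had 0.51, 0.19 and 0.03. Both genes were above 0 on all 3 arrays, with fitted values of 0.12 ± 0.07 and 0.26 ± 0.13 that were not called (adjusted p = 0.564 and 0.459).

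At 72 h, 8 of 36 genes were called lower in Y577F than in FI-Delta cells, or 22.2%, against 6.45% of all features, and 1 was called higher, against 6.44%. The median was -0.17 against 0.0073 for all features, and the 36 genes had medians of -0.17 and -0.15 on the 2 arrays of this comparison. Prmt1 gave 1.45 and 0.54 on these arrays, and it was higher in Y577F cells by 1.06 ± 0.14 (limma adjusted p = 0.000312, 2.09-fold higher). Nop56 gave -0.32 and -1.38, a wide spread on the same side of 0, and had a fitted value of -0.77 ± 0.14 (adjusted p = 0.0035). Nolc1 gave -0.69 and -0.70 and had a fitted value of -0.58 ± 0.10 (adjusted p = 0.00261).

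Npm1 gave -0.60 and -0.72 at 72 h and had a fitted value of -0.56 ± 0.10 (limma adjusted p = 0.00228). Bop1 gave -0.77 and -0.29 and had a fitted value of -0.56 ± 0.09 (adjusted p = 0.00111). It had -0.17 ± 0.08 at 0 h, not called (adjusted p = 0.427), and its fitted rise was larger in FI-Delta cells. The difference between the rises lost its call without 6 of the 10 arrays. Srm gave -0.46 and -0.15 and had a fitted value of -0.34 ± 0.10 (adjusted p = 0.0456). The other 3 calls were Mrto4 (-0.32 ± 0.09), Pa2g4 (-0.31 ± 0.09) and Odc1 (-0.27 ± 0.08), with adjusted p between 0.0408 and 0.0451. Of the 9 calls, those of Prmt1 and Bop1 held when any 1 array was left out. Without 72 h array 2, the values of Nop56, Nolc1 and Npm1 were -0.46, -0.41 and -0.40, with adjusted p of 0.069, 0.061 and 0.052. The calls of Mrto4, Pa2g4, Odc1 and Srm were lost without any of 6, 7, 7 and 8 single arrays.

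**Figure D4:**
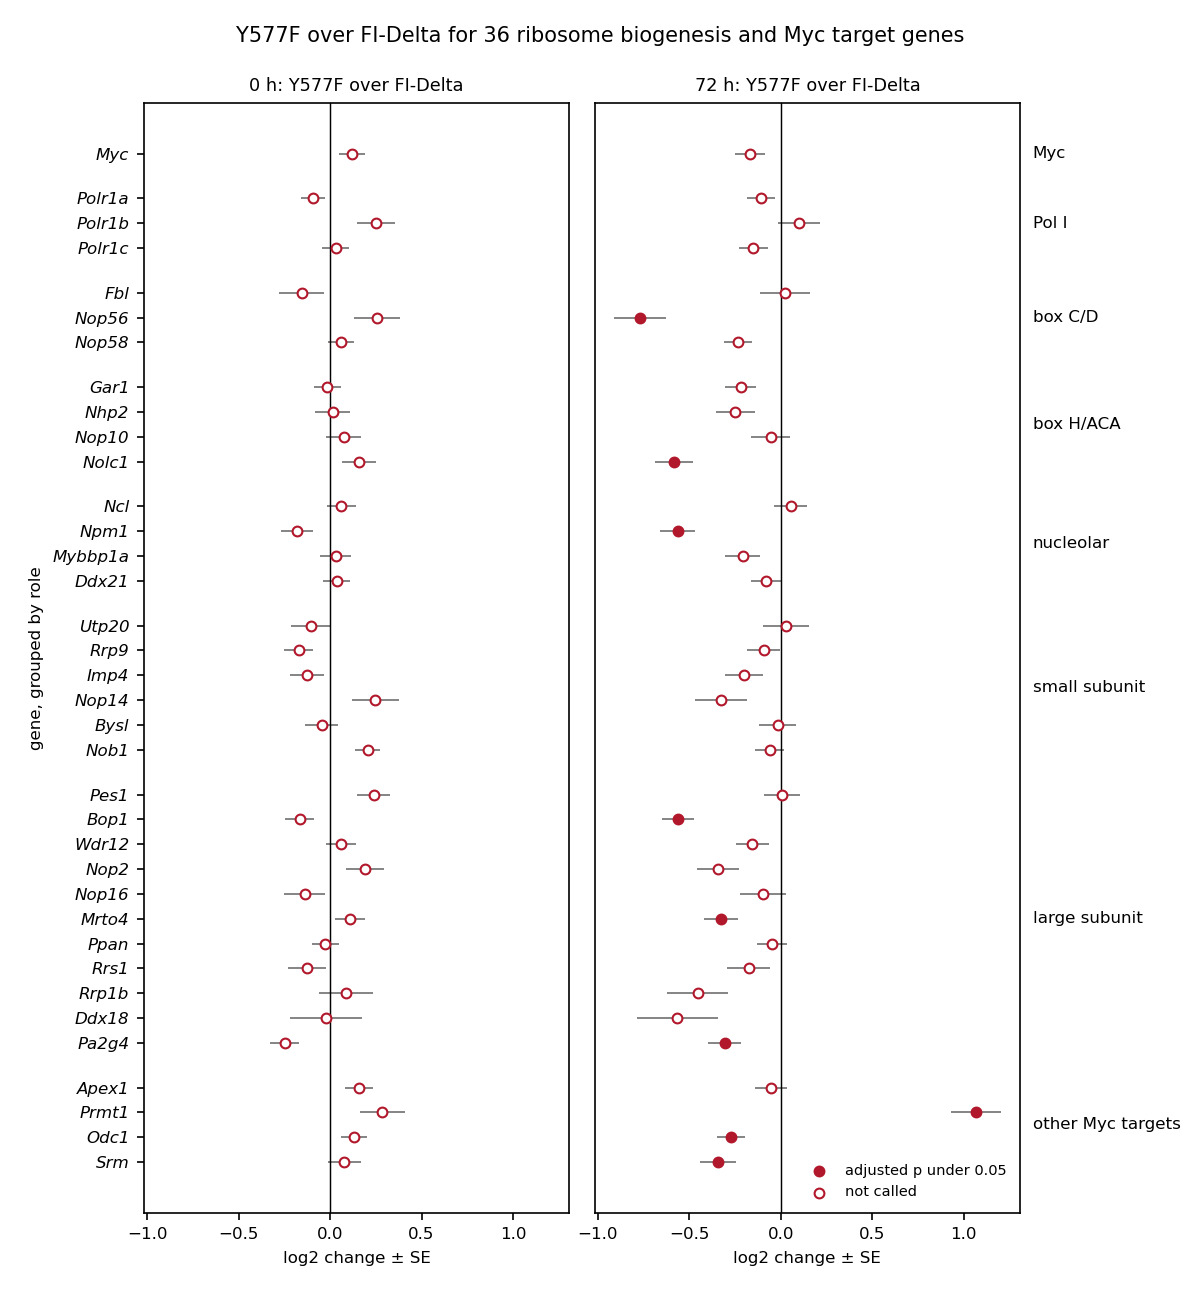
Log2 change of Y577F over FI-Delta (x axis, ± SE of the fit) of each of the 36 genes (y axis, grouped by role), at 0 h on the left and at 72 h on the right. At 0 h every point is open, between -0.25 and 0.28; at 72 h 8 filled points lie left of 0 and Prmt1 lies right of it at 1.06.

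A longer list of ribosome biogenesis genes outside the set, also chosen with earlier results of these data known, gave 75 with a feature. In Y577F cells 38 of 75 fell at 72 h, or 50.7%, against 8.75% of all features. There 0 rose, against 9.28% (limma, 0 higher at an unadjusted p under 0.05), and the median was -0.36. In FI-Delta cells 6 of 75 fell, or 8%, against 2.97% of all features. There 0 rose, against 5.19% (limma, 0 higher at an unadjusted p under 0.05), and the median was -0.14. The 3 largest called falls in Y577F cells were those of Lyar (-1.04 ± 0.20, adjusted p = 0.003), a growth-regulating nucleolar protein, Wdr43 (-0.87 ± 0.08, adjusted p = 2.5e-05), a processome component, and Brix1 (-0.81 ± 0.11, adjusted p = 0.00033), a large subunit factor. In FI-Delta cells they were those of Rcl1 (-0.49 ± 0.11, adjusted p = 0.016), a processome endonuclease, Tsr2 (-0.48 ± 0.09, adjusted p = 0.0056), a chaperone of a small subunit protein, and Grwd1 (-0.40 ± 0.10, adjusted p = 0.027).

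Between the lines, 15 of these 75 genes were lower in the difference of the 72 h changes, or 20%, against 4.91% of all features. At 72 h 12 were lower, or 16%, against 6.45%, and 1 was higher, against 6.44%. Mphosph10, a U3 particle protein, had the largest called difference (-0.74 ± 0.16, limma adjusted p = 0.013), and Lyar the largest at 72 h (-0.91 ± 0.20, adjusted p = 0.0098). At 0 h 0 of 75 were called (limma, with 4 higher and 0 lower at an unadjusted p under 0.05), against 0.934% higher and 0.484% lower of all features.

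Of 29 measured Myc targets outside the nucleolus, 12 fell and 1 rose in Y577F cells, and 7 fell and 1 rose in FI-Delta cells, with medians of -0.26 in Y577F cells and -0.20 in FI-Delta cells. The falls were 41.4% and 24.1% of the list, against 8.75% and 2.97% of all features. The rises were 3.45% in each line, against 9.28% and 5.19%. Ahcy, which clears S-adenosylhomocysteine after methylation reactions, fell in both lines, with -1.35 ± 0.09 in Y577F cells and -0.70 ± 0.09 in FI-Delta cells (limma adjusted p = 1.64e-06 and 0.000646), and the difference was called (-0.65 ± 0.10, adjusted p = 0.00216). Tfrc, the transferrin receptor, fell in Y577F cells (-0.98 ± 0.08, adjusted p = 8.1e-06) and was lower at 72 h in Y577F than in FI-Delta cells (-1.17 ± 0.08, adjusted p = 2.7e-06). The 1 that rose in both lines was Ccnd2, cyclin D2, by 0.99 ± 0.08 in Y577F cells and 0.69 ± 0.09 in FI-Delta cells. Between the lines at 72 h the median of the 29 genes was -0.04. There 7 were called lower, or 24.1%, against 6.45% of all features, and 3 higher, or 10.3%, against 6.44%. The median difference of the 72 h changes was -0.01, with 14 genes above 0 and 15 below. In it 7 were called lower, or 24.1%, against 4.91%, and 1 higher, or 3.45%, against 4.33%.

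In the Myc network, the partners and antagonists of Myc, 1 gene fell and 2 rose of 11 in Y577F cells, and 0 fell and 2 rose in FI-Delta cells (limma, 0 lower at an unadjusted p under 0.05). The fall in Y577F cells was 9.09% of the list, near the 8.75% of all features, and 2.97% of all features fell in FI-Delta cells. The rises were 18.2% in each line, against 9.28% in Y577F cells and 5.19% in FI-Delta cells. Mxd1, a repressor that competes with Myc for its partner Max, rose in FI-Delta cells by 1.13 ± 0.16 (adjusted p = 0.001) and had 0.17 ± 0.15 in Y577F cells (adjusted p = 0.534). It was lower in Y577F than in FI-Delta cells at 0 h (-0.90 ± 0.14, adjusted p = 0.0073) and at 72 h (-1.86 ± 0.15, adjusted p = 9.96e-06). The bearing of Mxd1 on the 36 genes of the set was not tested. Mxi1, another repressor of this family, rose by 0.35 ± 0.11 in Y577F cells and 0.43 ± 0.11 in FI-Delta cells.

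Of 9 further polyamine genes, 1 fell and 2 rose in Y577F cells, and 2 fell and 2 rose in FI-Delta cells. The falls were 11.1% and 22.2% of the list, against 8.75% and 2.97% of all features. The rises were 22.2% in each line, against 9.28% and 5.19%. Sms, spermine synthase, fell in both lines, with -0.37 ± 0.08 in Y577F cells and -0.40 ± 0.08 in FI-Delta cells, in the direction of Odc1 and Srm. Sat1, which acetylates polyamines for export and breakdown, rose by 1.10 ± 0.08 in Y577F cells and 1.00 ± 0.09 in FI-Delta cells (limma adjusted p = 4.49e-06 and 3.48e-05). Arg2, an arginase that makes ornithine, rose by 1.49 ± 0.11 in Y577F cells and 1.02 ± 0.12 in FI-Delta cells.

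**Figure D5:**
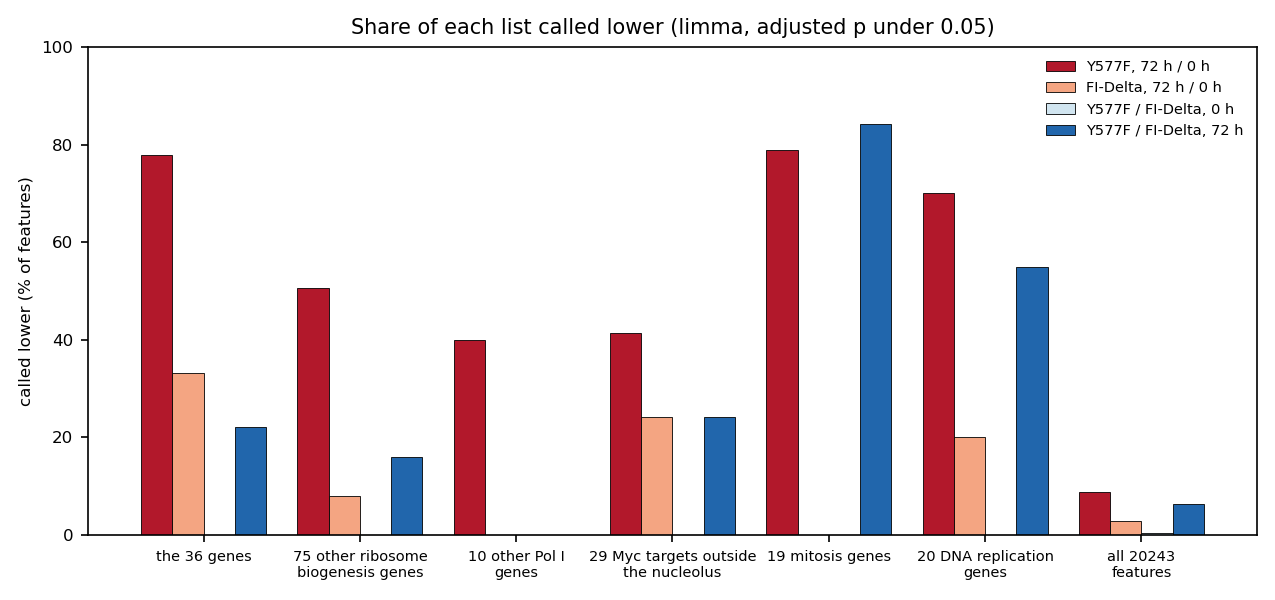
Percent of the features of each list called lower (y axis, limma adjusted p under 0.05) in each of 4 comparisons (bar colours), beside all 20243 features at the right. The 36 genes reach 77.8% in Y577F cells and 33.3% in FI-Delta cells at 72 h over 0 h, and the 19 mitosis genes 78.9% and 0%.

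Genes of growth and of mature cells moved in the same comparisons. Among all features, 8.75% fell and 9.28% rose in Y577F cells, and 2.97% fell and 5.19% rose in FI-Delta cells. In the difference 4.91% were lower. Of 19 mitosis genes, 15 fell in Y577F cells at 72 h (median -0.52) and 0 in FI-Delta cells (median 0.07, limma, 0 lower and 3 higher at an unadjusted p under 0.05), and 14 were lower in the difference. Of 20 DNA replication genes, 14 fell in Y577F cells (median -0.52) and 4 in FI-Delta cells (median -0.15), and 10 were lower in the difference. Of 10 monocyte and macrophage markers, 9 rose in Y577F cells (median 1.97, from 0.24 to 3.14) and 8 in FI-Delta cells (median 0.89, from 0.08 to 1.499). Of 11 neutrophil markers, 2 rose and 2 fell in Y577F cells (from -0.67 to 1.29), and 11 rose in FI-Delta cells (from 0.41 to 2.45). Of 9 markers of mast cells and basophils, 4 fell and 1 rose in Y577F cells, and 4 fell and 0 rose in FI-Delta cells (limma, 0 higher at an unadjusted p under 0.05). Of 8 myeloid progenitor markers, 5 fell and 1 rose in Y577F cells, and 1 fell and 2 rose in FI-Delta cells. Marker genes already differed between the lines at 0 h. There 8 of 11 neutrophil and 4 of 8 progenitor markers were lower in Y577F cells. Of the monocyte and macrophage markers 3 were higher and 1 lower, and of the mast cell and basophil markers 2 higher and 1 lower. Of all features 0.934% were higher and 0.484% lower at 0 h. The part of cell division and of cell type in the changes of the 36 genes was not tested.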

How the data were processed

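Total RNA was labelled indirectly with Cy5 or Cy3 and hybridised to spotted oligonucleotide arrays, per the labels' protocols. The deposited values are 1 log2 ratio per probe and array, which the authors made with limma per the submitters' processing notes, where no version stands. Log base and channel order are not stated. Base 2 and Cy5 over Cy3 follow limma's convention and are likely. If the order were the other way round, each sign reported would change. Titles set which array runs which way. As deposited, arrays of opposite dye in a comparison had an r across features of -0.63 for Y577F time arrays, -0.52 at 72 h and -0.24 and -0.35 for FI-Delta time arrays. At 0 h r was -0.09 and 0.04, so directions there rest on the titles. The value of -0.24 came from FI-Delta time arrays 1 and 2, the same RNA pair with the dyes exchanged. Arrays with the same dye order had an r of 0.36 at 0 h (arrays 2 and 3) and 0.54 for FI-Delta time arrays 1 and 3. Background correction and normalization were not stated in any source used here. Medians of the turned arrays lay between -0.0099 and 0.0155. Intensities and depth are unknown, and precision is limited by how many arrays there are.

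Control spots (1243 of 23040) were dropped. Of 21797 probes, 16651 had 1 gene symbol, 137 several and 5009 none. Probes sharing 1 symbol were averaged into 20243 features. The 36 genes had 37 probes, whose identifiers were all found in the RefSeq table, with 0 symbols changed. FI-Delta time arrays 1 and 2, the exchanged dyes, were averaged, so 9 hybridisations entered. The limma 3.58.1 model (R 4.3.3) used 3 coefficients, a dye effect, 5 residual and 6.34 prior degrees of freedom. Tests were two-sided with Benjamini-Hochberg adjustment over all features, in 5 comparisons that share arrays. The dye effect was called in 146 features and in 0 of the 36 genes. Arrays reuse RNA extracts, which makes p-values too small to an unknown degree, and the spread between the 2 biological replicates per line that the design text gives may be partly technical. The calculation was tested on simulated data.

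The genes of the set, their roles, the further lists and the tests were chosen with earlier results of these data known. Every measured gene of the set is named. Array values are given for Myc, Bop1 and Prmt1, for the 3 largest called falls in each line and for up to 6 genes called between the lines by size. Those of Nop2, Mrto4, Utp20, Odc1, Fbl, Ncl and Ddx18 were added after their values were seen. Up to 3 called genes of a further list are named by size. Alternatives were no dye effect, a replicate block, direct arrays alone, array weights, centred and scaled arrays, probes fitted separately, exchanged dyes kept separate, robust moderation, and each array left out. The replicate block gave each RNA extract its own coefficient. Neither it nor the fit of direct arrays alone held a dye effect.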

Additional observations from a re-analysis of the deposited data

Results flagged for a closer look

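In 9 of the 36 genes the 72 h change differed between Y577F and FI-Delta cells by the limma test of the difference itself (Y577F change minus FI-Delta change, against 4.91% of all features called lower and 4.33% higher). Nop56 (-1.03), Nolc1 (-0.74) and Prmt1 (0.78) were called whichever single array was left out. With direct arrays alone and no dye effect none of them was (limma adjusted p = 0.319 for Nop56, 0.223 for Nolc1 and 0.119 for Prmt1). Nolc1 also lost the call with the replicate block. Nop14 (-0.57), Nop2 (-0.54), Mrto4 (-0.43), Srm (-0.42), Odc1 (-0.40) and Bop1 (-0.40) each lost the call without at least 1 array. Nop14 and Bop1 lost it without 6 of the 10 arrays, Nop2 and Mrto4 without 5, Srm without 8 and Odc1 without 3. Bop1 is the 1 gene of these that rose in both lines, and Prmt1 the 1 that rose in Y577F cells and was not called in FI-Delta cells.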

How the results depend on the processing

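No called change of the 36 genes turned its direction under any of the 18 alternatives. With probes fitted separately the value of Ncl was the mean of its 2 probes, so that fit could not turn it. In every alternative 16 of the 30 Y577F time calls were kept (Myc, Nop56, Nop58, Nhp2, Nolc1, Npm1, Mybbp1a, Ddx21, Nob1, Nop2, Nop16, Ppan, Apex1, Prmt1, Odc1 and Srm), 4 of the 13 FI-Delta time calls (Bop1, Nop16, Ppan and Apex1), 2 of the 9 at 72 h (Bop1 and Prmt1) and 0 of the 9 differences. At 0 h the count stayed at 0. With each extract as a replicate block and the dye effect left out, 19 genes were lower and 1 higher in Y577F cells, 3 lower in FI-Delta cells (Nop16, Ppan and Apex1), 3 lower at 72 h (Nop56, Npm1 and Bop1) and 1 lower in the difference (Nop56). Calls over all features fell too, to 1721 in Y577F cells, 544 in FI-Delta cells, 1060 at 72 h and 440 in the difference, against 3649, 1652, 2609 and 1871 without the block. The block rests on a reading of the labels: where Y577F RNA was in Cy5 the titles attach the replicate numbers to the opposite line, so numbers 1 and 2 were taken as FI-Delta extracts and 3 and 4 as Y577F extracts, and no label says that a number marks a shared culture or day. With direct arrays alone and no dye effect, 1 was higher in Y577F cells, 4 were lower at 72 h, and 0 were lower and 0 higher in the difference (limma, 9 lower and 1 higher at an unadjusted p under 0.05). Over all features 1986 were then called in Y577F cells, 1344 at 72 h and 291 in the difference. Array weights gave 21 lower in FI-Delta cells and 15 lower at 72 h, with 3786 and 5537 of all features called. Without the dye term 4 were lower at 72 h (2096 of all features called), and with arrays centred and scaled 4 were lower at 72 h and 5 in the difference (2173 and 1444 of all features called). The cause of these shifts was not tested. With 1 array left out, the count lower in Y577F cells ran from 17 (without Y577F time array 1) to 28, and higher from 1 (without either Y577F time array) to 2. In FI-Delta cells the count lower ran from 7 (without FI-Delta time array 2) to 16. At 72 h it ran from 2 (without 72 h array 2) to 9, with 4 without 72 h array 1, FI-Delta time array 1 or 0 h array 2, and 5 without FI-Delta time array 3. In the difference it ran from 3 (without Y577F time array 1, 72 h array 1 or 0 h array 1) to 9, with 4 without 72 h array 2 or 0 h array 2, and 5 without FI-Delta time array 2. Signal over background, which limits small ratios, is unknown here.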
